A study of Mus musculus with 22 samples.

Results

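The 33 genes described here encode the sterol regulatory machinery of the cell: the control of SREBP transcription factors, the enzymes that build cholesterol, and the factors that export, esterify or hand on sterols. They were taken from a fixed list of gene symbols, chosen with earlier results of these data known. All 33 were among the 52327 genes of the count table, and all 33 passed the filter on low counts that left 14064 genes for testing. RNA was sequenced in bulk from FAC-sorted pancreatic β-cells, the insulin-producing cells of the islet, with 1 library from each of 22 mice. The mice were males of 3 months and of mixed strain. Every mouse carried GluDTR+ with SstDTR htz and PpyDTR htz, alleles that place the diphtheria toxin receptor in glucagon (α), somatostatin (δ) and pancreatic polypeptide (γ) cells. Diphtheria toxin (DT) kills cells that bear this receptor, so islets of DT-treated mice keep mainly β-cells. The 4 groups were refed DT mice (n = 6), refed control mice (n = 5), fasted DT mice (n = 6) and fasted control mice (n = 5). The labels give the time as 1 month after ablation for every mouse, control mice included, although control mice are not labelled as DT-treated. Fasted mice had been without food for 8 h, and refed mice had the same 8 h fast followed by 2 h of food. The labels do not state what the control mice received in place of toxin, and control mice carried the same receptor alleles.

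As background, cholesterol is made from acetyl-CoA through mevalonate, isoprenoids, squalene and lanosterol. When sterols in the endoplasmic reticulum are scarce, SCAP escorts SREBP to the Golgi, where the factor is cut and freed to switch on the genes of synthesis, whereas INSIG proteins hold SCAP back when sterols are plentiful. When oxysterols build up, LXR receptors switch on exporters such as ABCA1 and ABCG1. In β-cells, cholesterol content bears on insulin granules and on exocytosis.

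Levels are CPM, counts relative to the scaled size of each library, unless given per kilobase of exon. Total counts ran from 16584117 to 24988880 per library, and 0 pairs of libraries were identical. All 11 β-cell markers on the marker list were measured above the filter. Sst, the δ-cell hormone, had a median of 0.0496 CPM in refed DT mice and 56 CPM in refed control mice, and of 0.0475 CPM in fasted DT mice and 30.3 CPM in fasted control mice. It was called lower in DT mice in both feeding states, whereas Hhex and Rbp4, the other 2 genes of the δ-cell list, were not called in either. Gcg, the α-cell hormone, had a median of 0.461 CPM in refed DT mice and 158 CPM in refed control mice, and of 0.146 CPM in fasted DT mice and 77.4 CPM in fasted control mice. It was called lower in the average of the DT effects but in neither feeding state alone (adjusted p = 0.178 in refed and 0.0630 in fasted mice), and the γ-cell hormone Ppy was not called in either state (adjusted p = 0.510 and 0.451). Libraries of 2 refed DT mice stood apart. Insulin transcripts took 69.4% of the counts of mouse 13, against 40.3% to 51.1% in the other 21 libraries, and its scaling factor was 0.566. Mouse 20 had 1.35% mitochondrial counts, the highest share of any library, and immune markers summing to 528 CPM, the highest sum of any library. Results that rest on the refed DT mice are therefore given also without mice 13 and 20, a choice made after the data were seen. In bulk RNA, fewer cells of a type and less RNA per cell cannot be told apart.

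Promoter windows of RefSeq (mouse build GRCm38.p6, 250 bases before to 50 after the start of transcription) matched 28 of the 33 members by symbol and gave 37 windows. There were no windows for Sqle, Fdft1, Fdps, Stard4 and Abcg1. The box CCAAT, bound by NF-Y, a partner of SREBP at many sterol promoters, was searched on both strands and lay in 23 of the 37 windows (62.2%), against 37.4% of all 32851 windows. The Sp1 box GGGCGG lay in 27 of 37 windows, against 35.7% of all windows, and the E-box CACGTG in 7 of 37, against 7.15%. The sterol response element core TCACCCCAC lay in 1 member window, that of Hmgcs1, against 0.551% of all windows. The longer form of the sterol element and the LXR repeat with a spacer of 4 bases were in 0 of the 37 windows. The promoters shown belong to 5 members and are given as the 250 bases before the start, 5′ to 3′ on the gene's strand. They are those of Hsd17b7, Ebp and Lss, whose transcripts were higher after refeeding in both DT and control mice, of Abca1, whose transcript was lower in both, and of Hmgcs1, which holds the sterol element and was called in neither. Pmvk, also called higher in both, is not shown. It held 1 NF-Y box in its first window and 0 in its second. Capitals mark the NF-Y box on either strand (ATTGG where it lies on the opposite strand), the E-box and the core of the sterol element.
Hsd17b7: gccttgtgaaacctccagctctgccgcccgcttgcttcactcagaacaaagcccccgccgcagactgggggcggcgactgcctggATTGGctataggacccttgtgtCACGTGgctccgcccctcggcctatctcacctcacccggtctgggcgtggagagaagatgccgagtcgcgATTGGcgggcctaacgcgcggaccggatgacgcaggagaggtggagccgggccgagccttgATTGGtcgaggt
Ebp: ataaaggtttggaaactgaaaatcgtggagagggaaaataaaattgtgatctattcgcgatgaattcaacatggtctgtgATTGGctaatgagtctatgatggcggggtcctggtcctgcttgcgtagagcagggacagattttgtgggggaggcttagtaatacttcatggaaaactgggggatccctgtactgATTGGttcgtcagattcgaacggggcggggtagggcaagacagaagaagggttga
Lss: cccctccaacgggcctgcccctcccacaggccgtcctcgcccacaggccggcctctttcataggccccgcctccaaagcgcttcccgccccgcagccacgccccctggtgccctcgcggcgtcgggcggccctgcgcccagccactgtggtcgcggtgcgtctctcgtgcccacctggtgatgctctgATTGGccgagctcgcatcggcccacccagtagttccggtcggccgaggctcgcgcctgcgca
Abca1: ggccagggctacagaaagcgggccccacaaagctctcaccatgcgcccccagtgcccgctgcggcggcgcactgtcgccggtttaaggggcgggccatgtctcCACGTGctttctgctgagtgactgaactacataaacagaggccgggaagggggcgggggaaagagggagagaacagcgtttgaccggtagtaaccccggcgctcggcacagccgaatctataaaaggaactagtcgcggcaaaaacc
Hmgcs1: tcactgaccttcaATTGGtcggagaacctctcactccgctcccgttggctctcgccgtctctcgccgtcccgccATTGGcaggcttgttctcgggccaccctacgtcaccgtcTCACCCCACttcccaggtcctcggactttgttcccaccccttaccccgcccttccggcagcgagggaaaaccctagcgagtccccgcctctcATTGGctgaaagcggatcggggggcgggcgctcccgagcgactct

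In GRCm38.p6 these bases lie at chr1:169969206-169969455 (minus strand), chrX:8193513-8193762 (minus strand), chr10:76531355-76531604 (plus strand), chr4:53159896-53160145 (minus strand) and chr13:119690101-119690350 (plus strand). In the full windows, Hsd17b7 held 3 NF-Y boxes, Ebp 2, Lss 1, Hmgcs1 4 and Abca1 0. Counted by member, 22 of the 28 with a window (78.6%) held an NF-Y box in at least 1 window. These were 9 of the 9 called higher after refeeding in DT or control mice, 3 of the 6 called lower and 10 of the 13 called in neither direction. No share by gene was counted over all genes, and a member with several windows had more chances to hold a box. These counts therefore cannot be set against the 37.4% of all windows. Matches here are letters in a window and were given no test. A window without a match says nothing about binding elsewhere or at sites with other letters.

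Compared per kilobase of exon, the most abundant members over all 22 mice were Sqle (squalene epoxidase) at 35.7 CPM per kb, Aacs (acetoacetyl-CoA synthetase, which makes acetoacetyl-CoA from ketone bodies in the cytosol) at 28.4, Msmo1 (a sterol C4-methyl oxidase) at 18.6, Srebf1 at 18.3 and Srebf2 at 16.8 CPM per kb. The least abundant were Fdps (farnesyl diphosphate synthase) at 0.541, Mylip (a ubiquitin ligase that marks lipoprotein receptors for degradation) at 1.32, Hsd17b7 (a sterol C3-ketoreductase) at 1.34 and Idi1 (isopentenyl diphosphate isomerase) at 1.53 CPM per kb. Exons of Fdps share 26.7% of their bases with an overlapping gene, and 6 other genes carry near copies of its transcript, so its level is uncertain. Near copies of at least 95% identity over at least 100 bases were also found for Acat2, Idi1, Ggps1, Fdft1, Tmem97 and Insig1, each in 1 or 2 other genes. Hmgcs1, Msmo1, Dhcr7 and Soat1 share stretches past the same limits, at longest 142 to 227 bases, with 15, 62, 25 and 43 other genes. Levels of all these members are uncertain to that extent, and the strand setting of the counting is not given in the sources used here.

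After refeeding, 11 of the 19 enzymes of cholesterol synthesis were higher in DT mice and 4 in control mice, whereas the exporter Abca1 and the LXR gene Nr1h2 were lower in both. The difference between the feeding effects of DT and control mice was called for 0 of the 19 enzymes. Their fold changes were above 0 for 17 of 19 in DT mice and for 17 of 19 in control mice. Fold changes are given as log2 of refed over fasted. In DT mice, refed against fasted, 11 of the 33 members were higher and 4 were lower at an adjusted p of 0.05 (edgeR's quasi-likelihood test, Benjamini-Hochberg adjustment over all 14064 genes). Of all genes tested, 10.8% were higher and 13.5% lower in that comparison, so the 33.3% of members called higher lay above the background and the 12.1% called lower lay near it. In control mice, 4 members were higher and 4 lower, beside 10.9% and 12.3% of all genes, so that 12.1% of members in each direction is close to the background. Each of these 2 comparisons uses its own mice. The members were chosen with earlier results of these data known, so the shares describe them and are not a test. All calls of higher levels in control mice fell on genes also called higher in DT mice, namely Pmvk, Lss, Hsd17b7 and Ebp, and Abca1 and Nr1h2 were called lower in both. In the average of both feeding effects, 11 members were higher and 8 lower, beside 17.2% and 21.7% of all genes.

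By role, the 19 enzymes of the mevalonate and sterol steps had a median log2 fold change of 0.60 in DT mice, with 11 called higher and 1 lower, and of 0.31 in control mice, with 4 called higher and 0 lower. The median over all genes tested was -0.06 in DT mice and -0.04 in control mice. The 5 genes of SREBP control had medians of -0.23 and -0.38 in DT and control mice. The 6 genes of the LXR, export and esterification group had medians of -0.62 in DT mice and -0.61 in control mice, and 6 of 6 values were below 0 in each. Without refed DT mice 13 and 20, 14 members were higher and 4 lower in DT mice. Acat2, Nsdhl and Sc5d were added to the higher genes. Of all genes, 29.4% were then called in either direction, and 54.6% of those calls were higher. Mice 13 and 20 each had 3 of the 19 enzymes above their group's median, the fewest of the refed DT mice. Leaving them out therefore raises the group's levels of most enzymes.

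**Figure D1:**
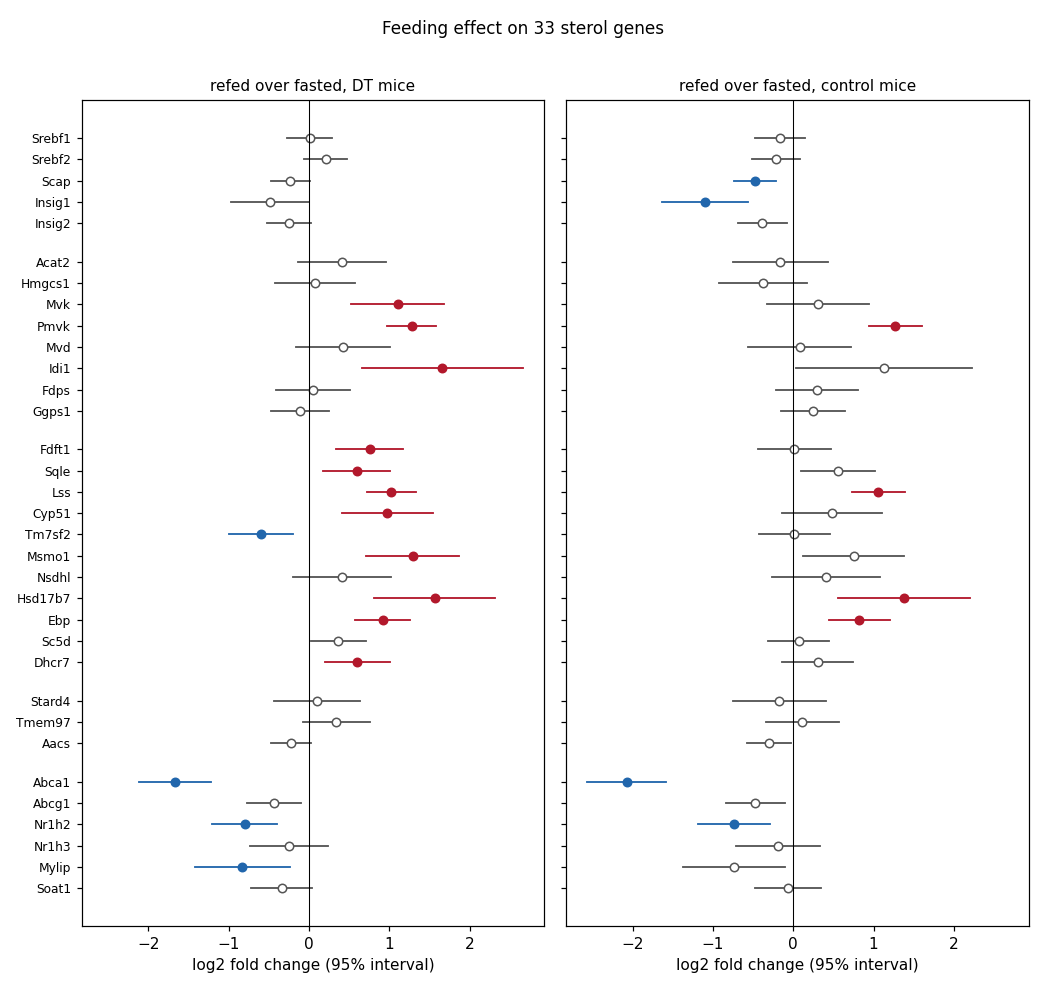
Log2 fold change of refed over fasted β-cells for the 33 members (points, with 95% intervals as lines), in DT mice on the left and control mice on the right. Genes run down the page by role: SREBP control, mevalonate and isoprenoid steps, squalene and sterol steps, other sterol-responsive genes, and LXR, export and esterification. Filled red points are members called higher (11 in DT mice, 4 in control mice) and filled blue points members called lower (4 and 4).

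RNA of exocrine cells was also present. Of 11 acinar (exocrine) markers, 10 were tested, 10 of 10 had positive log2 fold changes in each feeding comparison and 0 were called. Their summed level ran from 58.9 to 31324 CPM in refed DT mice, from 1114 to 18521 CPM in refed control mice, from 87.3 to 16398 CPM in fasted DT mice and from 107 to 11145 CPM in fasted control mice. These ranges overlap widely, and 1 of the 11 markers had no count in any mouse of 3 of the groups. The refed control mouse with the least acinar RNA, mouse 12, had 13 of the 19 enzymes above its group's median, and the fasted DT mouse with the least, mouse 8, had 14 of 19. The mice with the least in the other 2 groups, refed DT mouse 20 and fasted control mouse 3, each had 3 of 19. The part of acinar RNA in the feeding effects was not tested.

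Positions of genes below are those of the GENCODE annotation of GRCm38, in which all 33 members are protein-coding. In the mevalonate steps, Pmvk (chr3:89454541-89469013, plus strand), which encodes phosphomevalonate kinase, had lowest, median and highest levels of 21.5, 28.2 and 31.1 CPM in refed DT mice and 9.11, 11.5 and 13.1 CPM in fasted DT mice. Refed control mice had 36.9, 26.4, 25, 21 and 32.6 CPM, and fasted control mice had 15.4, 9.14, 11, 11.9 and 11.3 CPM. Every refed mouse lay above every fasted mouse, with a log2 fold change of 1.28 ± 0.15 (SE, adjusted p = 3.35e-06) in DT mice and 1.27 ± 0.16 (SE, adjusted p = 1.15e-05) in control mice. Mvk (chr5:114444269-114460591, plus strand), the mevalonate kinase that acts just before it, had 8.71, 12 and 19.6 CPM in refed DT mice and 4.47, 5.62 and 7.78 CPM in fasted DT mice, with no overlap. Its levels were 11.2, 6.09, 6.99, 4.67 and 7.96 CPM in refed control mice and 12, 5.88, 3.81, 4.83 and 3.29 CPM in fasted control mice, where the ranges overlapped and fasted mouse 1 was the highest of all 10. The log2 fold change was 1.10 ± 0.28 (SE, adjusted p = 0.00600) in DT mice and 0.31 ± 0.30 (SE, adjusted p = 0.513) in control mice, the second not called. Idi1 was called higher in DT mice at 1.66 ± 0.48 (SE, adjusted p = 0.0152) and had 1.13 ± 0.53 (SE, adjusted p = 0.130) in control mice. Its within-group spread was the widest of the 33 members, with refed DT levels of 2.19, 7.43 and 18.3 CPM.

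The other 5 genes of these steps were not called in any feeding comparison. Hmgcs1, the HMG-CoA synthase of the pathway, averaged 44.5 ± 15.4 CPM in refed DT mice and 42.1 ± 11.2 CPM in fasted DT mice, and 31.1 ± 6.34 CPM in refed control mice and 40.3 ± 14.5 CPM in fasted control mice (mean ± SD). Its 95% intervals for the log2 fold change reached from -0.42 to 0.58 in DT mice and from -0.92 to 0.17 in control mice, below the size seen for Pmvk. Fdps had intervals from -0.41 to 0.51 and from -0.22 to 0.80 in DT and control mice. The log2 fold changes of Acat2 (a cytosolic acetoacetyl-CoA thiolase), Mvd (mevalonate diphosphate decarboxylase) and Ggps1 (geranylgeranyl diphosphate synthase) lay between -0.11 and 0.43 in DT mice and between -0.16 and 0.25 in control mice.

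Among the squalene and sterol steps, Lss (chr10:76531588-76557138, plus strand), the lanosterol synthase that closes the sterol rings, had 37.3, 52.3 and 57.3 CPM as lowest, median and highest levels in refed DT mice and 19.4, 23.6 and 30.9 CPM in fasted DT mice. Refed control mice had 57.1, 49, 41.6, 50.3 and 39 CPM and fasted control mice 31.1, 24.3, 20.7, 18 and 19.7 CPM. No refed mouse overlapped a fasted mouse, and the log2 fold change was 1.03 ± 0.15 (SE, adjusted p = 3.90e-05) in DT mice and 1.06 ± 0.16 (SE, adjusted p = 7.22e-05) in control mice. Ebp (chrX:8185329-8193512, minus strand), a sterol isomerase, had 27.1, 31.6 and 42.7 CPM in refed DT mice and 13.2, 15.8 and 23.4 CPM in fasted DT mice, without overlap. Its levels were 30.9, 33.1, 34.1, 27.4 and 37.8 CPM in refed control mice and 15.7, 17.1, 15.5, 16.5 and 27.7 CPM in fasted control mice, where fasted mouse 5 alone reached into the refed range. Log2 fold changes were 0.92 ± 0.17 (SE, adjusted p = 4.36e-04) and 0.82 ± 0.18 (SE, adjusted p = 0.00249) in DT and control mice. Hsd17b7 (chr1:169949535-169969241, minus strand) had 5.47, 10.6 and 17.2 CPM in refed DT mice and 1.89, 3.62 and 5.40 CPM in fasted DT mice, again without overlap. Refed control mice stood at 11.7, 10.3, 8.20, 7.16 and 7.45 CPM and fasted control mice at 7.81, 2.39, 3.15, 2.18 and 1.62 CPM, and fasted mouse 1 lay inside the refed range. The log2 fold change was 1.57 ± 0.36 (SE, adjusted p = 0.00322) in DT mice and 1.38 ± 0.40 (SE, adjusted p = 0.0140) in control mice, the widest change among the synthesis genes called in both.

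Msmo1 (chr8:64718139-64733792, minus strand) had 85.6, 178 and 285 CPM in refed DT mice and 54.4, 73.6 and 95.7 CPM in fasted DT mice, and the groups overlapped through refed mouse 13. Refed control mice had 174, 161, 94.7, 101 and 85.3 CPM, and fasted control mice 117, 76.5, 58.1, 63 and 52.2 CPM. Its log2 fold change was 1.29 ± 0.28 (SE, adjusted p = 0.00208) in DT mice, called, and 0.75 ± 0.30 (SE, adjusted p = 0.0805) in control mice, not called. Sqle, the squalene epoxidase that catalyses a rate-limiting oxidation, was called in DT mice at 0.59 ± 0.20 (SE, adjusted p = 0.0342) and had 0.56 ± 0.22 (SE, adjusted p = 0.0719) in control mice. Cyp51, the lanosterol demethylase, was called in DT mice at 0.98 ± 0.27 (SE, adjusted p = 0.0125), Fdft1, the squalene synthase, at 0.75 ± 0.20 (SE, adjusted p = 0.00878), and Dhcr7, a late reductase of the pathway, at 0.60 ± 0.19 (SE, adjusted p = 0.0282). In control mice these 3 genes had log2 fold changes of 0.48, 0.01 and 0.31, none called. Fdft1 shares 18.3% of its exon bases with Ctsb on the opposite strand, measured at a mean of 226 CPM. The log2 fold change of Ctsb was -0.20 (adjusted p = 0.224) in DT mice and -0.41 (adjusted p = 0.0210) in control mice. Fdft1 also has a near copy, Gm6781, which was measured at a mean of 3.86 CPM. Its log2 fold change was 0.79 (adjusted p = 0.0315) in DT mice and -0.20 (adjusted p = 0.659) in control mice.

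Tm7sf2, a sterol C14-reductase, went the other way in DT mice, where it was called lower at -0.60 ± 0.19 (SE, adjusted p = 0.0257). In control mice its log2 fold change was 0.01. Without refed mice 13 and 20 it was no longer called. Its exons share 12.1% of their bases with Vps51. The log2 fold change of Vps51 was -0.72 (adjusted p = 3.90e-05) in DT mice and -0.33 (adjusted p = 0.0344) in control mice. Nsdhl (a sterol C4-decarboxylase) and Sc5d (a sterol C5-desaturase) were not called, with 0.42 and 0.37 in DT mice. Without mice 13 and 20 both were called higher in DT mice, at 0.80 and 0.66. The difference between the feeding effects of DT and control mice was not called for any of the 19 enzymes, and was 0.80 ± 0.41 (SE, adjusted p = 0.726) for Mvk and 0.74 ± 0.30 (SE, adjusted p = 0.614) for Fdft1, the 2 enzymes with the highest differences.

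**Figure D2:**
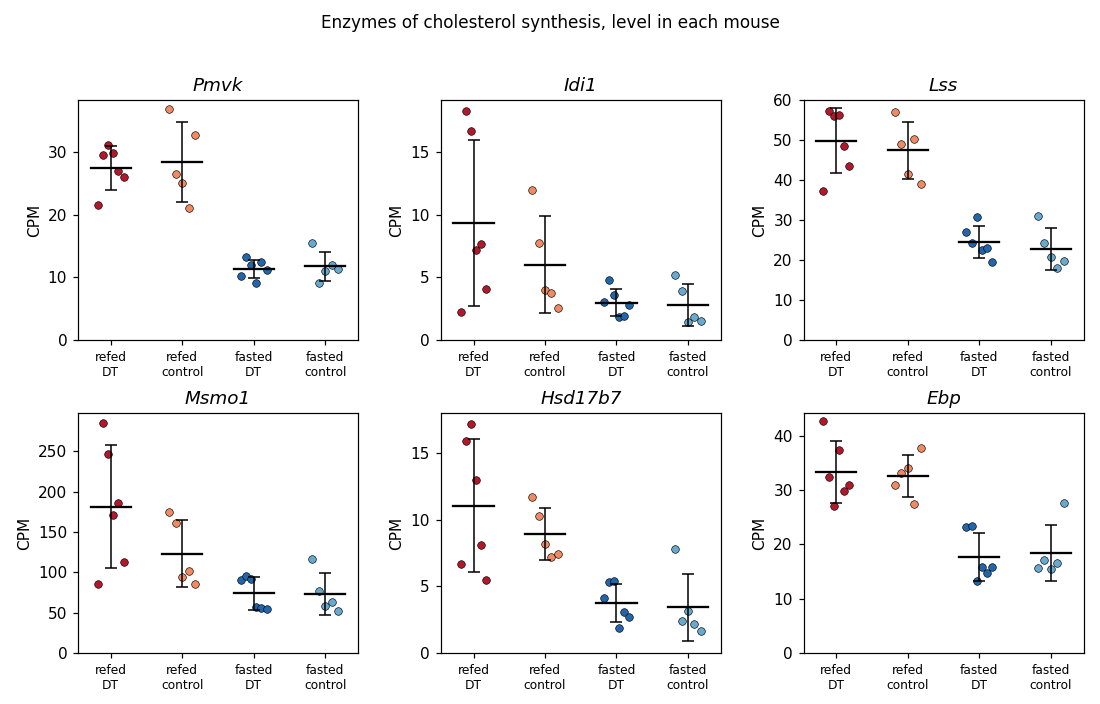
Level in CPM of 6 enzyme genes in each mouse (points), for refed DT, refed control, fasted DT and fasted control mice, with the group mean (bar) and SD (whiskers). Every refed mouse lay above every fasted mouse for Pmvk and Lss, whereas refed DT mice 13 and 20 lay within the fasted DT range for Idi1, as did mouse 13 for Msmo1.

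Of the 5 genes of SREBP control, 0 were called higher after refeeding, and Scap and Insig1 were called lower in control mice. Insig1 (chr5:28071363-28078662, plus strand), an SREBP target that retains SCAP in the endoplasmic reticulum, had 16.6, 38.5 and 70.7 CPM as lowest, median and highest levels in refed DT mice and 45.4, 55.6 and 71.3 CPM in fasted DT mice. Refed control mice had 39.4, 41.7, 26.3, 23.4 and 20.9 CPM and fasted control mice 78.6, 66.1, 67.7, 56.2 and 56.7 CPM. The control groups did not overlap and the DT groups did, through refed mouse 14 at the top. Its log2 fold change was -0.48 ± 0.23 (SE, adjusted p = 0.138) in DT mice, not called, and -1.10 ± 0.26 (SE, adjusted p = 0.00361) in control mice, called lower, with a difference of 0.61 ± 0.35 (SE, adjusted p = 0.747) between them. Scap (chr9:110333288-110384950, plus strand), the escort of SREBP, had 49.4, 58.2 and 70.9 CPM in refed DT mice and 59, 67.7 and 91.7 CPM in fasted DT mice, which overlapped. Its levels were 58.7, 49.8, 53.3, 58.4 and 58.1 CPM in refed control mice and 65.3, 66.4, 73, 86.9 and 95.2 CPM in fasted control mice, with no overlap. The log2 fold change was -0.23 ± 0.12 (SE, adjusted p = 0.151) in DT mice and -0.48 ± 0.13 (SE, adjusted p = 0.00899) in control mice, the second called lower. Exons of Scap share 13.2% of their bases with an antisense gene, 5830462I19Rik, that was measured at a mean of 0.0884 CPM.

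Insig2, the second INSIG gene, was called lower in the average of both feeding effects alone, at -0.32 ± 0.10 (SE, adjusted p = 0.0135). The transcripts of both SREBP factors stayed uncalled. Srebf2, the factor most tied to cholesterol genes, had 113, 137 and 170.0 CPM in refed DT mice and 95.1, 119 and 155 CPM in fasted DT mice, and 122, 97.4, 82.7, 106 and 92.8 CPM in refed control mice and 141, 124, 112, 106 and 99 CPM in fasted control mice. Its log2 fold change was 0.21 ± 0.13 (SE, adjusted p = 0.254) and -0.22 ± 0.14 (SE, adjusted p = 0.303) in DT and control mice, and all 4 ranges overlapped. Srebf1, whose SREBP-1c form serves fatty acid genes, had 0.01 ± 0.14 (SE, adjusted p = 0.969) in DT mice and -0.17 ± 0.15 (SE, adjusted p = 0.460) in control mice. Transcript levels do not measure the cut, active form of either factor.

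On the export side, Abca1 (chr4:53030787-53159895, minus strand), the transporter that loads cholesterol onto apolipoprotein A-I, fell the furthest of the 33 members. Its lowest, median and highest levels were 39.5, 50.6 and 74.8 CPM in refed DT mice and 119, 171 and 277 CPM in fasted DT mice. Refed control mice had 57.1, 37.1, 44, 79.6 and 51.5 CPM, and fasted control mice had 216, 195, 291, 187 and 245 CPM. Every refed mouse lay below every fasted mouse, and the log2 fold change was -1.67 ± 0.21 (SE, adjusted p = 1.30e-05) in DT mice and -2.07 ± 0.24 (SE, adjusted p = 4.49e-06) in control mice. Nr1h2 (chr7:44549616-44553951, minus strand), which encodes LXRβ, had 22.5, 24.8 and 56.8 CPM in refed DT mice and 38.5, 52.5 and 62.6 CPM in fasted DT mice, where refed mouse 13 alone overlapped the fasted range. Its levels were 28.4, 23.8, 25.8, 28.9 and 33.4 CPM in refed control mice and 39.9, 39.5, 61.6, 42.9 and 49.7 CPM in fasted control mice, without overlap. The log2 fold change was -0.80 ± 0.20 (SE, adjusted p = 0.00495) in DT mice and -0.74 ± 0.21 (SE, adjusted p = 0.0154) in control mice.

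Mylip was called lower in DT mice at -0.83 ± 0.28 (SE, adjusted p = 0.0363) and had -0.74 ± 0.31 (SE, adjusted p = 0.0900) in control mice. Abcg1, the exporter to high-density lipoprotein, had -0.44 ± 0.16 (SE, adjusted p = 0.0512) in DT mice and -0.47 ± 0.18 (SE, adjusted p = 0.0565) in control mice, and was called lower in the average of both, at -0.46 ± 0.12 (SE, adjusted p = 0.00440). Nr1h3 (LXRα) and Soat1 (which esterifies cholesterol for storage) were not called, with -0.24 and -0.34 in DT mice and -0.19 and -0.07 in control mice. Of the 3 other sterol-responsive genes, Aacs was called lower in the average, at -0.26 ± 0.09 (SE, adjusted p = 0.0247), while Stard4 (a sterol carrier) and Tmem97 (a sterol-regulated membrane protein) were not called and ranged from -0.17 to 0.34 over both comparisons.

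**Figure D3:**
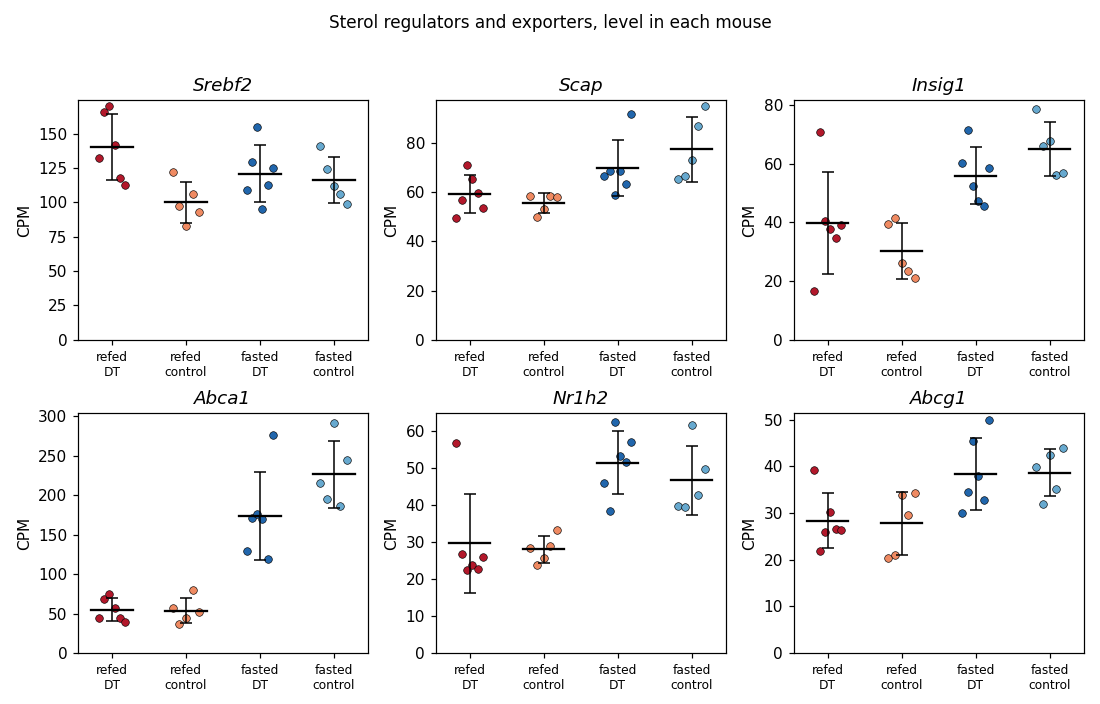
Level in CPM of 6 regulators and exporters in each mouse (points), for refed DT, refed control, fasted DT and fasted control mice, with the group mean (bar) and SD (whiskers). Every refed mouse lay below every fasted mouse for Abca1. The single high refed DT point of Nr1h2 is mouse 13, at 56.8 CPM.

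Within each group, mice differed in how many of the 19 enzymes lay above the group's median, which is given as a description with no test. In refed DT mice, mouse 14 had 18 of the 19 above the group's median and held the highest level of 11 of them, and mouse 15 had 14 above. Mouse 13 had 3 above and the lowest level of 13, and mouse 20 had 3 above. Ebp went against this order, with its highest level in mouse 13 and its lowest in mouse 15. Refed control mouse 12 held the highest level of 11 enzymes and had 13 above the median, with 10 above in mouse 18 and 4 to 6 in the other 3 mice, of which mouse 22 held 3 of the highest and 6 of the lowest levels. Among fasted DT mice, mice 6, 7 and 8 had 15, 17 and 14 above, and mice 9, 10 and 11 had 5, 4 and 2, although Tm7sf2 was lowest in mouse 7. Fasted control mouse 1 had 17 above and the highest level of 13, mouse 2 had 12 above, and mice 3, 4 and 5 had 3, 4 and 2, although Ggps1 was lowest in mouse 1. The median enzyme of a mouse, as a log2 ratio to the mean of fasted control mice, ran from -0.05 in mouse 13 to 1.09 in mouse 14 among refed DT mice. It ran from 0.13 to 0.56 among refed control mice, from -0.24 to 0.38 among fasted DT mice and from -0.22 to 0.39 among fasted control mice, so that refed DT mice 14, 15, 16 and 17 and refed control mice 12 and 18 lay above every fasted mouse. The highest immune marker sums of the refed groups were in DT mouse 20 (528 CPM, 3 enzymes above) and control mouse 21 (56.4 CPM, 4 above). Those of the fasted groups were in DT mouse 7 (426 CPM, 17 above) and control mouse 1 (209 CPM, 17 above). The part of immune RNA in these levels was not tested.

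**Figure D4:**
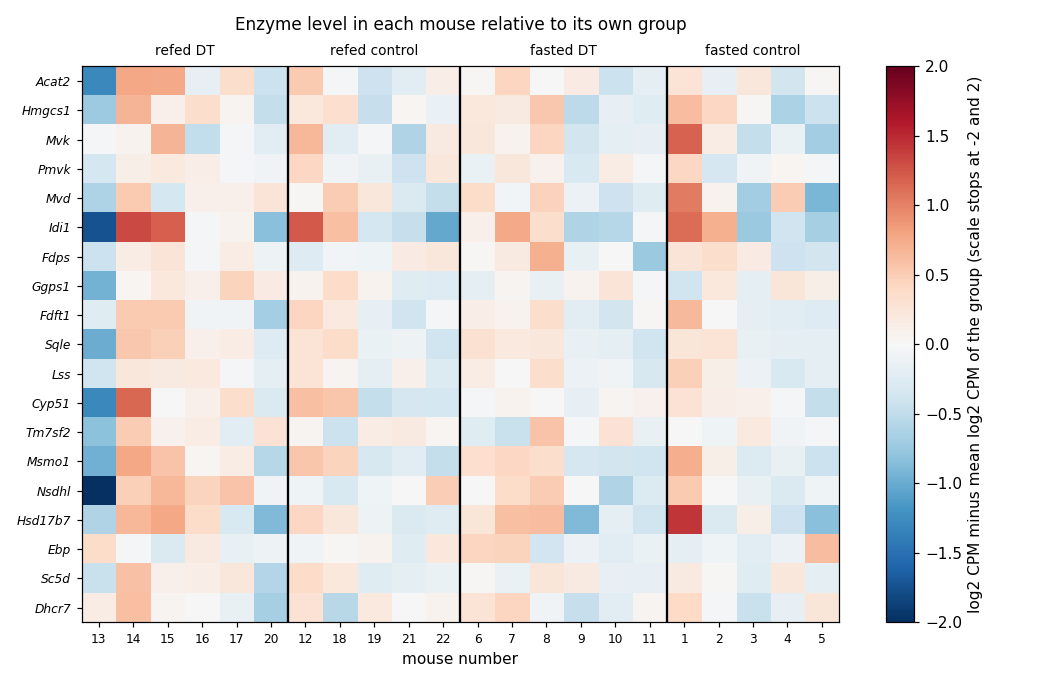
Level of each of the 19 enzymes in each of the 22 mice as log2 CPM minus the mean log2 CPM of the mouse's own group (red above, blue below), with groups from left to right refed DT, refed control, fasted DT and fasted control. Mouse 13 holds the lowest level of 13 enzymes in its group, and fasted control mouse 1 the highest of 13.

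Toxin treatment went with no called difference in the members' levels. Between DT and control mice, 0 of the 33 members were called in refed mice and 0 in fasted mice, and 0 were called in the average of the 2 DT effects or in the difference between them. Calls were as rare among all genes, at 0.0356% in refed mice, 0.0284% in fasted mice, 0.206% in the average and 0.00711% for the difference. At an unadjusted p under 0.05 there were 7 members in refed mice, 2 in fasted mice, 7 in the average and 3 for the difference, beside 10%, 8.33%, 11.9% and 7.14% of all genes in the same order. DESeq2 and limma voom also called 0 members in each of these 4 comparisons. In refed mice 26 of the 33 log2 fold changes were above 0, with a median of 0.16 beside -0.00 over all genes, and in fasted mice 16 were above 0, with a median of -0.01. The 2 comparisons between DT and control mice use the same 22 mice as the feeding comparisons, so the values are not independent of each other.

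The 2 members with the smallest p in refed mice were Srebf2 and Fdft1. Srebf2 had the levels given above, and its log2 fold change of DT over control was 0.48 ± 0.14 (SE, adjusted p = 0.220) in refed mice and 0.06 ± 0.14 (SE, adjusted p = 0.959) in fasted mice. Fdft1 had lowest, median and highest levels of 46.9, 71.4 and 108 CPM in refed DT mice, against 64.4, 54.8, 42.6, 36.2 and 46.5 CPM in refed control mice. In fasted DT mice it had 35.4, 47.2 and 58.7 CPM, against 73.6, 47.4, 41.4, 40.5 and 39.2 CPM in fasted control mice, and the DT and control groups overlapped in each feeding state. Its log2 fold change was 0.68 ± 0.21 (SE, adjusted p = 0.255) in refed mice and -0.06 ± 0.21 (SE, adjusted p = 0.971) in fasted mice. Mvk had 0.78 ± 0.29 (SE, adjusted p = 0.354) in refed mice. Pmvk, Lss and Ebp, which moved with feeding, had DT effects in refed mice of -0.05, 0.07 and 0.03, with 95% intervals from -0.36 to 0.27, from -0.24 to 0.39 and from -0.33 to 0.39. Soat1 and Nr1h3 lay lower in refed DT mice, at -0.47 ± 0.19 (SE, adjusted p = 0.393) and -0.52 ± 0.24 (SE, adjusted p = 0.488), and neither passed the test.

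Without mice 13 and 20, 4 refed DT mice remained. Then 175 of 14295 genes (1.22%) were called between refed DT and refed control mice, with 0.797% of all genes higher, and 1 of the 33 members, Fdft1, was called higher, at 0.90 ± 0.21 (SE, adjusted p = 0.0395). Its ranges no longer overlapped, and mouse 20, left out here, had held the lowest Fdft1 level of the refed DT mice. Ctsb, which overlaps Fdft1, had a log2 fold change of 0.03 (adjusted p = 0.927) in that fit, and Gm6781, its near copy, had a log2 fold change of 1.03 (adjusted p = 0.0608). Srebf2 had 0.59 ± 0.15 (SE, adjusted p = 0.0530) there and was not called. The difference between the DT effects was called for 0 members and 0.0979% of all genes in that fit. At an unadjusted p under 0.05 there were 15 of the 33 members between refed DT and refed control mice. There were 12 in the average and 10 for the difference. The shares of all genes were 12.9%, 13.7% and 12.5% in the same order. Members were chosen with earlier results known, and the mice left out had few enzymes above their group's median, so these counts are descriptions.

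**Figure D5:**
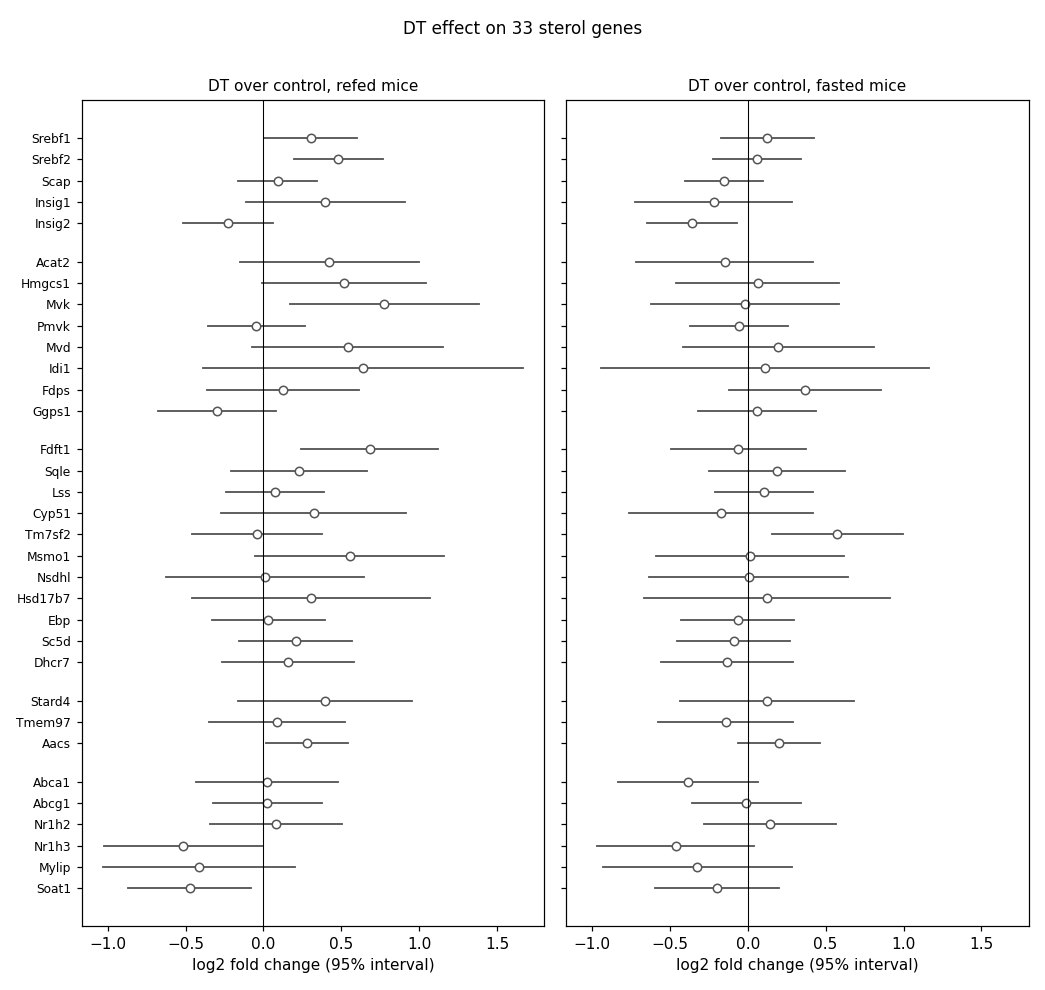
Log2 fold change of DT over control β-cells for the 33 members (points, with 95% intervals as lines), in refed mice on the left and fasted mice on the right, with genes in the order of their roles. All points are open, since 0 members were called in either comparison, and 26 of 33 lie above 0 in refed mice.

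Neighbouring genes of the pathway were counted from lists of known function, to be read against the shares of all genes after refeeding. Those were 10.8% higher and 13.5% lower in DT mice and 10.9% and 12.3% in control mice. The lists too were chosen with earlier results of these data known, so their shares are descriptions and not tests. A list of 12 genes held those of SREBP cleavage and INSIG turnover and the vesicle coat genes Sec23a, Sec24a, Sec24b, Sec24c and Sec24d. Of the 12, 2 were higher and 2 lower after refeeding in DT mice, and 5 higher and 1 lower in control mice. The 16.7% in each direction in DT mice lay near the background, and the 41.7% higher in control mice lay above it. These shares are of the whole list, coat genes included, and not of cleavage genes alone. Ubxn4, which serves the degradation of proteins from the endoplasmic reticulum, was higher at 0.67 ± 0.10 (SE, adjusted p = 8.04e-05) in DT mice and 0.89 ± 0.11 (SE, adjusted p = 1.18e-05) in control mice, and Erlin2, a membrane factor in sterol-regulated degradation, was lower at -0.75 ± 0.14 (SE, adjusted p = 4.88e-04) and -0.59 ± 0.15 (SE, adjusted p = 0.00720). Mbtps1, the first protease that cuts SREBP, was lower at -0.45 ± 0.13 (SE, adjusted p = 0.0112) in DT mice. Of 14 genes of sterol uptake and transport, 0 were higher and 3 lower in DT mice, and 1 higher and 6 lower in control mice, which makes 21.4% and 42.9% lower. Osbpl2, an oxysterol-binding lipid transfer protein, was lower at -0.58 ± 0.12 (SE, adjusted p = 0.00142) in DT mice and -0.71 ± 0.13 (SE, adjusted p = 5.24e-04) in control mice, and Scarb1, the receptor for high-density lipoprotein, was lower at -0.75 ± 0.16 (SE, adjusted p = 0.00201) in control mice. Nceh1, a cholesteryl ester hydrolase, was the list's only gene called between DT and control mice, lower in the average of the DT effects at -0.36 ± 0.07 (SE, adjusted p = 0.0353).

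The non-sterol branch of mevalonate, with 12 genes, had 3 higher and 0 lower in DT mice, and 5 higher and 0 lower in control mice, or 25% and 41.7% higher beside 10.8% and 10.9% of all genes. Dhdds, which makes dolichol precursors, was higher at 0.60 ± 0.17 (SE, adjusted p = 0.0117) in DT mice and 0.86 ± 0.18 (SE, adjusted p = 0.00178) in control mice, and Rabggtb, a subunit of the enzyme that prenylates Rab proteins, at 0.37 ± 0.12 (SE, adjusted p = 0.0273) and 0.78 ± 0.13 (SE, adjusted p = 2.37e-04). Of 4 electron donors of sterol oxidation, 0 were higher and 1 lower in DT mice, and 1 higher and 2 lower in control mice, with Cyb5r3, the cytochrome b5 reductase, lower at -0.29 ± 0.10 (SE, adjusted p = 0.0338) and -0.32 ± 0.11 (SE, adjusted p = 0.0298). Of 5 genes of oxysterol formation and metabolism, 3 were tested. Cyp46a1, which hydroxylates cholesterol, and Cyp7b1, which hydroxylates oxysterols further, were lower in the average of both feeding effects, where 21.7% of all genes were lower. Their log2 fold changes were -1.38 ± 0.42 (SE, adjusted p = 0.0119) and -0.52 ± 0.19 (SE, adjusted p = 0.0353). Of 7 further LXR targets, 4 were tested, with 0 higher and 1 lower in DT mice and 0 higher and 2 lower in control mice. Smpdl3a, a phosphodiesterase related to acid sphingomyelinase, was lower at -1.09 ± 0.17 (SE, adjusted p = 7.53e-05) in DT mice and -1.28 ± 0.18 (SE, adjusted p = 4.03e-05) in control mice, and Lpcat3, which remodels phospholipids, was lower at -0.55 ± 0.13 (SE, adjusted p = 0.00510) in control mice. Of 16 genes of fatty acid synthesis and desaturation, 4 were higher and 1 lower in DT mice, and 1 higher and 2 lower in control mice. Their 25% higher in DT mice lay above the 10.8% of all genes, whereas 6.25% higher and 12.5% lower in control mice lay near or below the background of 10.9% and 12.3%. Fads2, a fatty acid desaturase, was higher at 1.29 ± 0.30 (SE, adjusted p = 0.00315) in DT mice, and Lpin1, a phosphatidate phosphatase, was lower at -1.86 ± 0.23 (SE, adjusted p = 7.91e-06) and -1.37 ± 0.25 (SE, adjusted p = 3.98e-04) in DT and control mice.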

How the data were processed

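Per the labels' protocols, SMARTer cDNA of sorted cells went into Nextera XT libraries read from a single end. The authors deposited raw read counts per gene symbol, with 1 column per mouse and 0 columns of no mouse. The submitters' processing notes name build GRCm38.p6 and 3 tools, DESeq2 1.28.1, HTSeq 0.9.1 and STAR 2.7.2b. Their settings and annotation release are not given in the sources used here.

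Counts were fitted in R 4.3.3 with edgeR 4.0.16 (filterByExpr by group, TMM scaling, 4 group coefficients over all 22 mice, robust quasi-likelihood fits and F tests). Benjamini-Hochberg adjustment covered all 14064 genes in each of 7 comparisons, with a threshold of 0.05. The fit was tested on simulated counts. Alternatives used DESeq2 1.42.0, limma 3.58.1 (voom), other scalings and filters, and fewer mice. SE was taken from the F statistic, and intervals cover 95%. Of 52327 symbols, 95.4% matched GENCODE, which gave positions, exon lengths and overlaps. Reads had no molecular identifiers, so the counts are of reads and not of molecules.

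The members and lists were chosen with earlier results of these data known. Called members with the 10 smallest p values are given mouse by mouse in groups of 5 and by lowest, median and highest in groups of 6, other called members by fold change, and the rest by counts and ranges. Hmgcs1, Srebf1, Srebf2 and the levels of Idi1 and Fdft1 were added after their values were seen.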

Additional observations from a re-analysis of the deposited data

Results flagged for a closer look

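In groups of 5 or 6 mice, a mouse is named here when its gap to the nearest other mouse took an unusually large part of the group's range (Dixon's 95% limit). Of 136 groups checked, 7 (5.15%) held such a mouse, and chance alone gives about 5%. Refed DT mouse 13 had 56.8 CPM of Nr1h2, next to 26.7 CPM in the nearest mouse. Refed control mouse 18 had 5.72 CPM of Tm7sf2, below the next at 7.96 CPM. Fasted DT mouse 11 had 91.7 CPM of Scap and 277 CPM of Abca1, next to 68.6 and 176 CPM. Fasted control mouse 1 had 73.6 CPM of Fdft1 and 7.81 CPM of Hsd17b7, next to 47.4 and 3.15 CPM. Fasted control mouse 5 had 27.7 CPM of Ebp, next to 17.1 CPM. Mouse 1 was also the fasted control mouse with the most enzymes above its group's median.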

How the results depend on the processing

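No paired analysis was possible because each mouse number occurs once, so the groups share no replicate numbers. No member reversed direction with a call under any alternative run, and 0 members were called between DT and control mice in all of them except the added one, chosen after seeing the data, that left out refed DT mice 13 and 20, where 1 (Fdft1) was higher. That alternative called 26 genes in all for DT in fasted mice, 175 in refed mice, 123 in the average and 14 for the difference, and 7 members lower with refeeding in control mice. The DESeq2 test called 41, 81, 167 and 21 genes in the same 4 comparisons. DESeq2 size factors gave 2 in fasted mice. With limma voom 1 gene was called in refed mice and 0 for the difference, and 7 members were lower with refeeding in control mice. With no filter, 0 genes were called in fasted mice, 8 in the average, and 2 members lower with refeeding in DT mice. With only the groups compared, there were 0 genes in fasted mice, 2 in refed mice, and 2 and 8 members lower with refeeding in DT and control mice. Leaving out each mouse in turn gave 0 to 11 genes for DT in fasted mice, 1 to 52 in refed mice, 1 to 2 for the difference and 4 to 69 in the average. Members called with refeeding then ran from 9 to 14 higher and 2 to 5 lower in DT mice, 4 to 5 higher and 3 to 6 lower in control mice, and 10 to 13 higher and 6 to 8 lower in the average. Tm7sf2, Sqle, Dhcr7 and Mylip in DT mice, Nr1h2 in control mice (without fasted control mouse 3) and Fdft1, Aacs and Insig2 in the average lost their calls in at least 1 of these fits. The cause was not tested. Counting precision is lowest for Mylip, with 7 counts in its lowest library.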
